A study of Mus musculus with 6 samples.

Results

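The genes described here are 30 genes of G2 and M phase, the stretch of the cell cycle in which a cell with copied chromosomes enters and completes division. They were taken by symbol from a list of cyclins, kinases, spindle, centromere, checkpoint and cytokinesis genes. The rule uses no measured value, though the list was drawn up with earlier results of these data known. All 30 were found among the 24091 gene symbols of the count table, and all 30 passed the filter on low counts that left 12469 genes for testing. The cells were type 1 innate lymphoid cells (ILC1), tissue-resident lymphocytes that make interferon gamma, isolated from the liver of C57BL/6 mice. Mice of the AML group had been injected intravenously with C1498 cells, an acute myeloid leukaemia line derived from this strain, and mice of the healthy group had not. Both groups were collected at day 14, with 3 libraries each, called healthy 1 to 3 and AML 1 to 3. The comparison asks how the transcripts of liver ILC1 differ between leukaemic and healthy mice. The labels give neither the gate used to isolate the cells, nor the sex of the mice, nor whether a library came from 1 mouse or a pool, so p-values measure only how far these libraries scatter, and part of that scatter may be technical.

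In resting cells most mitotic genes are held silent by the DREAM complex, made of the pocket proteins p107 and p130, E2F4 and the MuvB core with LIN9 and LIN54. LIN54 contacts a short promoter element called the cell cycle genes homology region, or CHR, which often lies close to CCAAT boxes bound by NF-Y. When cells commit to division, MuvB exchanges its partners for B-MYB and FOXM1, and the same promoters become active in G2 and M phase. Most lymphocytes that reside in the adult liver are not dividing, so in a bulk library the messenger RNA of these genes depends on how many cells are in cycle and on how much each of them holds. Those 2 quantities cannot be told apart here.

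The promoters are shown because the genes were found to move together from library to library, and because the CHR element can be searched for in the sequence. Whether the element has a part in that shared movement was not tested. RefSeq promoter windows of GRCm38.p6, running from 250 bases before to 50 bases after the start site, were matched for 25 of the 30 genes. Ccna2, Foxm1, Tpx2, Aurkb and Kif20a had no entry. Each window was searched on both strands for the CHR element, as TTTGAA or TTCGAA, and for the CCAAT box, as CCAAT. Matches can overlap, as in Ube2c, where CCAAT boxes on opposite strands share 2 letters, and the end of one motif can share a base with the other. The CHR element was found in 19 of the 25 genes (76%), against 21.7% of all 27025 genes with promoter windows of the same length. The CCAAT box was found in 21 genes (84%), against 41.1% of all these genes. All 19 genes with a CHR element also held a CCAAT box in the same window (76%), against 8.61% of all these genes. The 6 windows without a CHR match were those of Birc5, Ccnb1, Cenpe, Mad2l1, Nusap1 and Tacc3. A match is a run of letters, not a shown binding site. The windows below are those of 6 genes from 5 of the role groups described later, written from 5′ to 3′ on the strand of the gene, with the letters of CHR and CCAAT matches in capitals. Cdk1 lies on the minus strand with its window at chr10:69352863-69353162, Ccnb2 on the minus strand at chr9:70421505-70421804, and Plk1 on the plus strand at chr7:122159185-122159484. Top2a lies on the minus strand at chr11:99024140-99024439, Ube2c on the plus strand at chr2:164769679-164769978, and Bub1b on the plus strand at chr2:118597961-118598260.
Cdk1: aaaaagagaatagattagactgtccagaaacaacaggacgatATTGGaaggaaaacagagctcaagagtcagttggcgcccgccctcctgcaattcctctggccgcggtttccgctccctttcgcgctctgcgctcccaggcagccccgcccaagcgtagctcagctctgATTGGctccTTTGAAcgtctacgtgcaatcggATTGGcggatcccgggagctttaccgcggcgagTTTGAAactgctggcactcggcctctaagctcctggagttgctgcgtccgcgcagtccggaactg
Ccnb2: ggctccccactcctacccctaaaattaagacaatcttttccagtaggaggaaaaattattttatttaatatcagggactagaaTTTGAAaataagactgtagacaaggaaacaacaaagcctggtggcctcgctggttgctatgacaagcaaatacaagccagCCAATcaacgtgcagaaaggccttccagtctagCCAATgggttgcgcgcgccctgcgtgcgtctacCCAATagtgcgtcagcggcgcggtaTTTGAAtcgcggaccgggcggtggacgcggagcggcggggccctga
Plk1: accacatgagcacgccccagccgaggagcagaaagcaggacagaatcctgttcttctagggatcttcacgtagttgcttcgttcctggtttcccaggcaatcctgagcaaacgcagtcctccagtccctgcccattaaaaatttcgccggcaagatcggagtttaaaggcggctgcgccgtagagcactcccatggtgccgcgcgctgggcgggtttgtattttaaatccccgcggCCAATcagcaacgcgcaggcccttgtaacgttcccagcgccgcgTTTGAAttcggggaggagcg
Top2a: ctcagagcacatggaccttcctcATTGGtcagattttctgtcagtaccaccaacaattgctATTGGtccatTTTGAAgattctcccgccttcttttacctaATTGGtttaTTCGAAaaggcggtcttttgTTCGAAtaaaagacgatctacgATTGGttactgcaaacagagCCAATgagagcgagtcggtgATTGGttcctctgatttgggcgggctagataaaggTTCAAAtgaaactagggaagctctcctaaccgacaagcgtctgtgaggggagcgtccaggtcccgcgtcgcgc
Ube2c: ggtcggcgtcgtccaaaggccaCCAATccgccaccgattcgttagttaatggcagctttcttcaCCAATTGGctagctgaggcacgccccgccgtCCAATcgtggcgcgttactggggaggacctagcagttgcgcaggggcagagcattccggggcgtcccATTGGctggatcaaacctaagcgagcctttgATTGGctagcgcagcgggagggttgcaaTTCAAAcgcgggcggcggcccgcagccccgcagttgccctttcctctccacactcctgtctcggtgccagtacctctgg
Bub1b: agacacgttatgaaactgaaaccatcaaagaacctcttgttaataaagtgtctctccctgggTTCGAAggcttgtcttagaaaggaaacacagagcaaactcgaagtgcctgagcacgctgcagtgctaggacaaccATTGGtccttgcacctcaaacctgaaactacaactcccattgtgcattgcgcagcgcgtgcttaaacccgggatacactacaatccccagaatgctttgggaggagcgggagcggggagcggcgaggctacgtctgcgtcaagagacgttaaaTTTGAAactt

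In Cdk1 the CHR matches began 71 and 15 bases before the start site, and the nearest CCAAT matches 80 and 48 bases before it. Ccnb2 carried 3 CCAAT matches at 87, 54 and 21 bases before the start, followed by a CHR match that began 5 bases after it. Plk1 held a single CCAAT match 14 bases before and a single CHR match 31 bases after the start. In 19 of the 25 genes (76%) a CHR match fell between 100 bases before and 50 bases after the start, against 9.87% of all genes with promoter windows. The map of motif matches shows how the CHR elements of most of these genes gather around the start site.

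**Figure D1:**
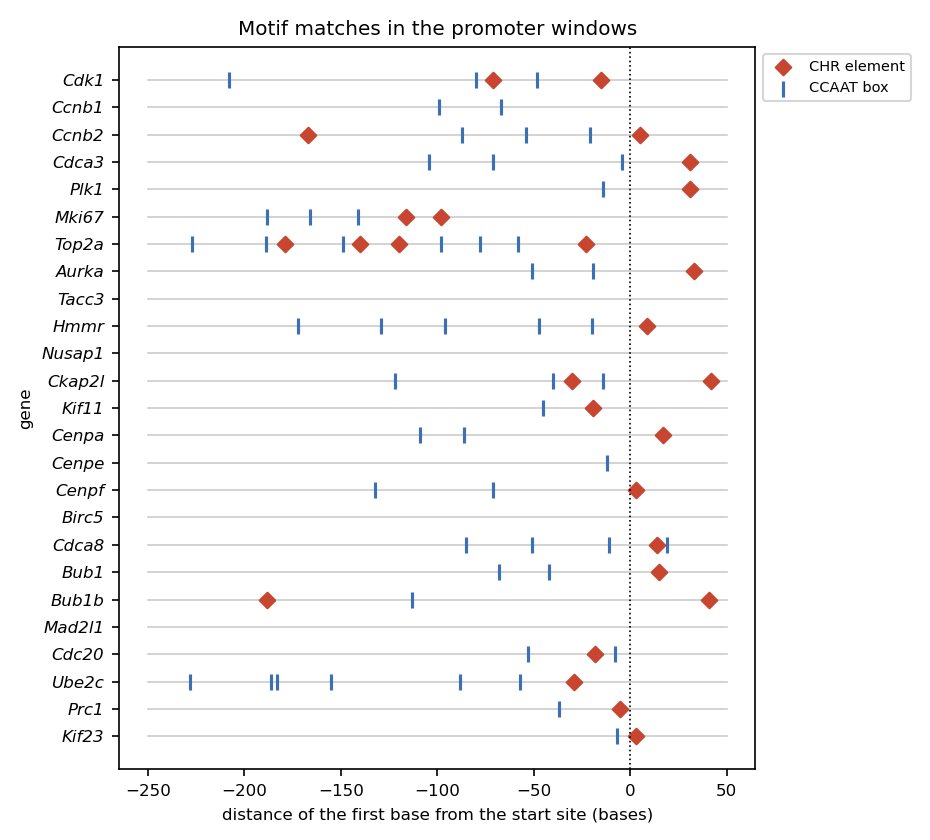
Each line is the promoter window of 1 of the 25 matched genes, and the horizontal axis gives the distance of a match's first base from the start site, in bases. Diamonds are CHR matches, found in 19 genes, and bars are CCAAT matches, found in 21 genes. Tacc3, Nusap1, Birc5 and Mad2l1 held neither motif.

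Depth was similar in all libraries, at 45135093 to 51284691 total counts. Levels are given as CPM, the reads of a gene scaled to a common library size. Where a library holds 0 reads of a gene, up to 3 remain possible, or 0.0574 to 0.0641 CPM, by counting error alone. Markers of the labelled cell type were present: 9 ILC1 genes summed to 6758 to 7686 CPM and 7 genes of conventional natural killer cells to 28.9 to 60.8 CPM. The largest parts of the ILC1 sum were Ncr1, Klrb1c and Xcl1, and Klra4 of the natural killer list was at 0 in all 6 libraries. The 2 sums therefore do not measure the share of either cell type. The 7 T cell genes summed to 979 to 1692 CPM, nearly all of it from Cd3g at 950 to 1646 CPM. Cd3d was at 14.09 to 29.03 CPM, Cd8a at 3.04 to 16.48 CPM and Cd4 at 2.5 to 7.7 CPM over the 6 libraries. Cd3e was also read in all 6 libraries and reached 39.6 CPM in AML 3. Cd8b1 and Cd5 were each at 0 in 1 AML library. Reads carry no record of strand, so a gene that overlaps another cannot be separated from it by strand.

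The mitotic genes formed 1 block that differed far more between single libraries than between the groups. Their summed level was 117, 350 and 130 CPM in healthy 1 to 3 and 728, 184 and 236 CPM in AML 1 to 3. This made 199 ± 131 CPM in the healthy group and 383 ± 300 CPM in the AML group (SD, n = 3 each). AML 1 was the highest library and healthy 2 the second, above AML 2 and AML 3. The order was nearly the same gene by gene. AML 1 ranked first in 29 of the 30 genes, and healthy 2 first in the other, Cenpe. Healthy 2 ranked second in 27 genes, AML 3 next in 21, AML 2 after it in 19, healthy 3 last but 1 in 15 and healthy 1 last in 20. The heatmap of the 30 genes shows these 2 bright columns across every role group.

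**Figure D2:**
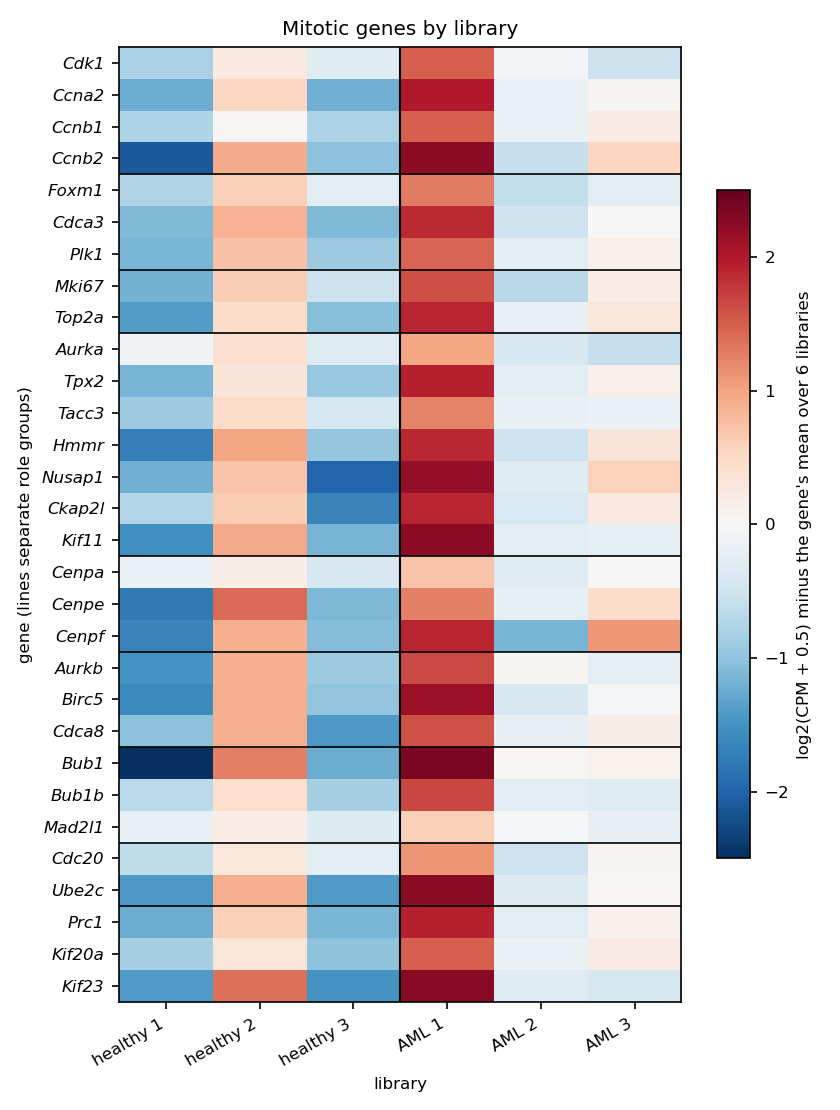
Rows are the 30 mitotic genes in role groups separated by lines, and columns are the 6 libraries. Colour gives log2(CPM + 0.5) minus the gene's mean over the 6 libraries, red above and blue below that mean. AML 1 is the reddest column in 29 genes, and healthy 2 is red beside 2 blue healthy libraries.

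AML 1 exceeded the mean of AML 2 and AML 3 by a median of 3.71-fold over the 30 genes, from 1.65-fold in Mad2l1 to 7.10-fold in Kif23. In 28 genes that excess was at least 2-fold. Healthy 2 exceeded the mean of healthy 1 and healthy 3 by a median of 3.85-fold over the genes other than Bub1. The excess was at least 2-fold in 25 of the 30 genes. The exceptions in healthy 2 were Cdk1, Aurka, Cenpa, Mad2l1 and Cdc20. AML 2 lay below healthy 2 in all 30 genes, and AML 3 lay above it in 2, Ccnb1 and Cenpf. The SD of log2 CPM within groups had a median of 1.10 over the 30 genes and 0.17 over all genes tested. In 28 of the 30 genes it was above 0.48, the 90th percentile of all genes tested.

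The contrast of the groups did not exceed this spread in the test. In the quasi-likelihood test of edgeR, all 30 genes had a positive log2 fold change, AML minus healthy, with a median of 1.08 against 0.01 over all genes tested. Of all genes tested, 52.0% were positive. None of the 30 genes passed an adjusted p of 0.05 (Benjamini-Hochberg over all genes), and neither did any other gene, with 0 of 12469 called (0%). At an unadjusted p below 0.05 a single mitotic gene was higher in AML, Ccnb1, where the background was 634 genes (5.08%). DESeq2 gave no p-value for Bub1 and Kif23 and called 0 of the other 28 genes, against 104 of 12453 genes called higher in AML (0.835%). The likelihood ratio test of edgeR also called 0, against 76 genes higher in AML (0.61%). In 0 of the 30 genes did all AML libraries lie above all healthy libraries, which was the case for 1022 of all genes tested (8.2%). The 95% interval of the fold change held 0 in 29 of the 30 genes, yet most intervals also reached beyond a log2 value of 2, with a median upper bound of 2.96. The authors' deposited table lists 27 of the 30 genes, all with a positive log2 fold change. Of these 27 genes 0 had an adjusted p below 0.05 there, against 74 of all 9769 genes listed. The smallest adjusted p of the 27 in the authors' deposited table was 0.226, for Top2a.

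Leaving out libraries moved the values widely. Without AML 1 the median log2 fold change of the 30 genes was 0.07, with 17 positive and 13 negative. None of the 30 genes was then higher in every AML library than in every healthy one, against 17.4% of all genes, and 0 of the 30 were called, against 147 of all genes (1.15%). Without healthy 2 the median was 2.21, and 22 of the 30 genes had all AML libraries above both healthy ones, against 11.8% of all genes. Even so 0 of the 30 passed the adjusted threshold, as did 0 of all genes (0%). With both AML 1 and healthy 2 left out, a choice made after seeing the values, the median was 1.22 and 29 of the 30 were positive. Of the 30 genes 22 then had AML 2 and AML 3 above healthy 1 and healthy 3, against 22.3% of all genes. The test called 0 of the 30, against 82 of all genes (0.652%), and the smallest adjusted p was 0.0704, for Top2a. Over all settings tried, the smallest adjusted p of any mitotic gene lay between 0.0704 and 0.816. Healthy 2 was the highest healthy library in all 30 genes and AML 1 the highest AML library in all 30, so leaving out AML 1 lowers, and leaving out healthy 2 raises, the fold change of every one of them.

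**Figure D3:**
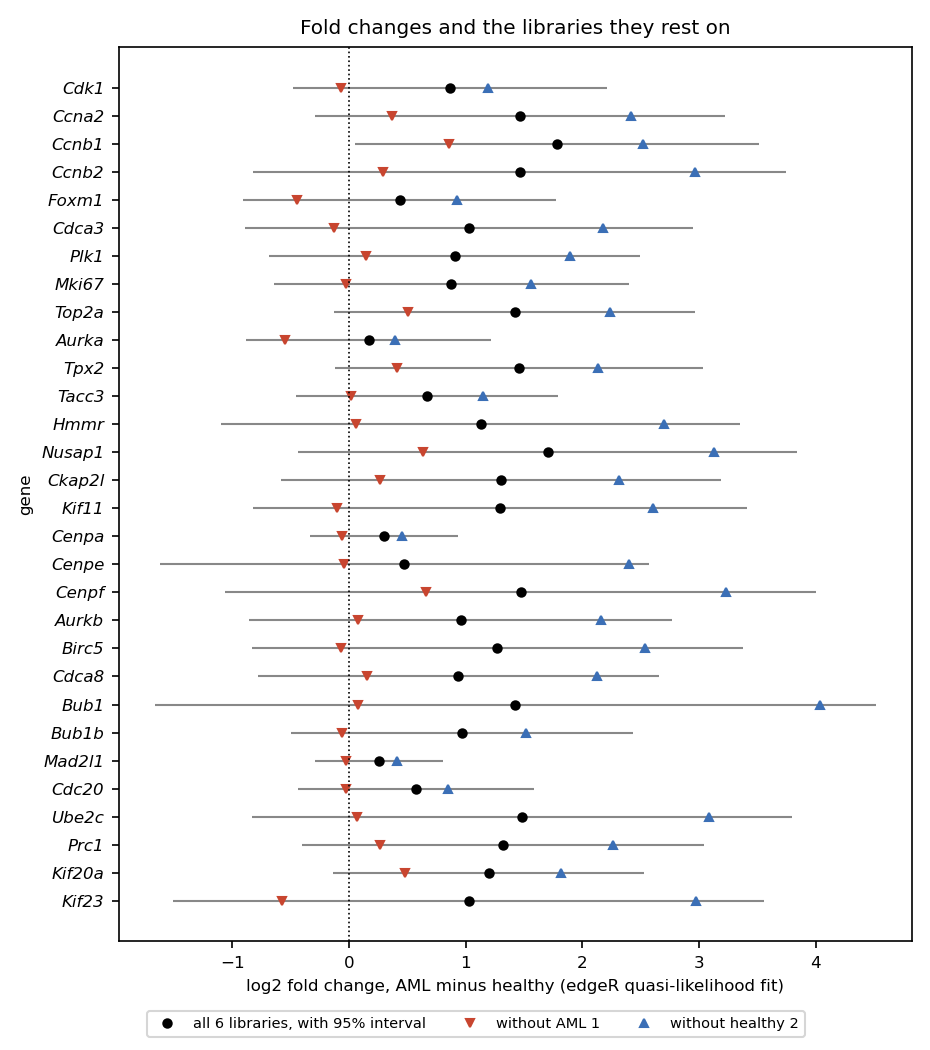
Points give each gene's log2 fold change, AML minus healthy, from the edgeR quasi-likelihood fit, with the 95% interval of the fit to all 6 libraries as a line. Downward triangles are the values without AML 1 (median 0.07) and upward triangles those without healthy 2 (median 2.21).

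The cyclins and their kinase drive entry into mitosis. Cdk1, the kinase itself, stood at 2.75, 6.25 and 4.17 CPM in healthy 1 to 3 and at 15.6, 4.98 and 3.43 CPM in AML 1 to 3. Its log2 fold change was 0.86 ± 0.58 (SE; adjusted p = 0.661). AML 1 stood apart from the other AML libraries, which lay inside the healthy range. Ccnb1, which encodes cyclin B1, the mitotic partner of CDK1, had 0.304, 0.905 and 0.291 CPM in the healthy libraries and 3.38, 0.727 and 1.09 CPM in the AML libraries. Its fold change of 1.79 ± 0.75 (log2, SE) was the highest of the 30 and had an unadjusted p of 0.0447 and an adjusted p of 0.563. Only AML 2 fell within the healthy range of Ccnb1. It rests on 14 to 158 reads per library. Ccnb2, which encodes cyclin B2, gave 0.932, 11.3 and 2.51 CPM in healthy mice and 28.6, 3.62 and 8.37 CPM in AML mice, a log2 fold change of 1.46 ± 0.98 (adjusted p = 0.661). Its highest library held 30.7 times the level of its lowest, the widest span among the genes other than Bub1, and healthy 2 exceeded both AML 2 and AML 3. Ccna2, which encodes cyclin A2 of S and G2 phase, had a log2 fold change of 1.47 ± 0.76.

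FOXM1 is the transcription factor of the late cell cycle, and PLK1 the kinase that drives centrosome maturation and mitotic entry. Foxm1 measured 4.38, 11.98 and 6.35 CPM in healthy 1 to 3 and 19.6, 4.88 and 6.27 CPM in AML 1 to 3. Its log2 fold change of 0.44 ± 0.58 was among the smallest, and AML 2 and AML 3 both lay within the healthy range. Plk1 measured 1.66, 7.42 and 2.06 CPM in the healthy libraries, against 12.7, 3.50 and 4.71 CPM in the AML libraries, with a log2 fold change of 0.90 ± 0.69 (adjusted p = 0.688). Cdca3, a cofactor in the destruction of the WEE1 kinase, had 1.86, 8.83 and 1.87 CPM in the healthy libraries, against 18.0, 3.04 and 4.63 CPM in the AML libraries. In both Plk1 and Cdca3 the 2 lower AML libraries stood between healthy 2 and the remaining healthy ones.

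Mki67 and Top2a are the usual marks of cycling cells. Mki67, whose product Ki-67 coats mitotic chromosomes, was at 5.49, 20.4 and 8.78 CPM in healthy 1 to 3 and at 40.9, 7.88 and 14.9 CPM in AML 1 to 3. The log2 fold change was 0.88 ± 0.66 (adjusted p = 0.685), and the level of AML 2 was below those of healthy 2 and healthy 3. Top2a, encoding the topoisomerase that untangles sister chromatids, was at 7.92, 29.97 and 10.2 CPM in the healthy libraries, against 83.3, 19.1 and 26.4 CPM in the AML libraries. Its log2 fold change was 1.42 ± 0.67 (adjusted p = 0.569), and healthy 2 was again above AML 2 and AML 3. Top2a had the most reads of any of the 30 genes in AML 1, at 3896. The plot of levels in each library sets these genes beside others of the block.

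**Figure D4:**
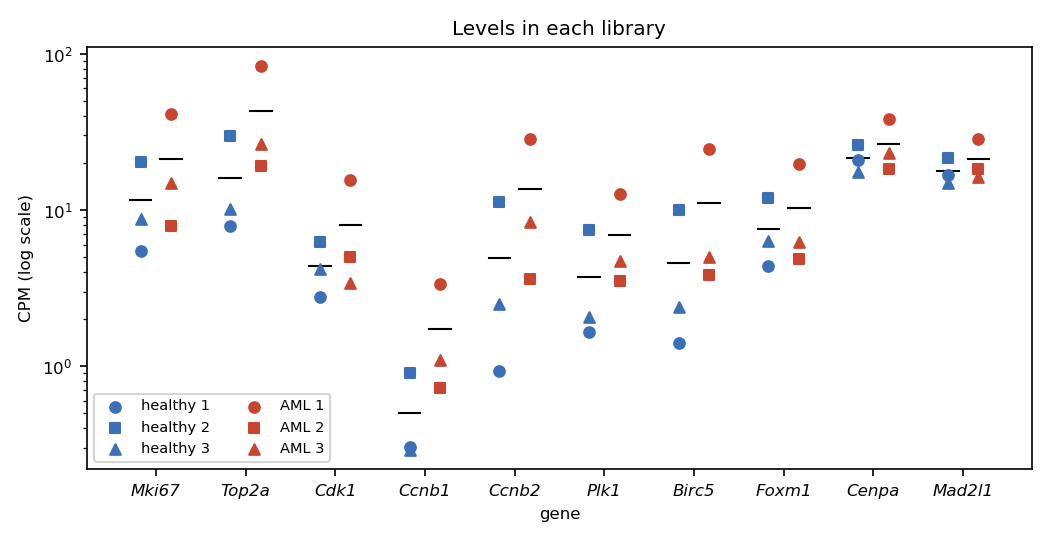
The vertical axis gives CPM on a log scale for 10 of the genes, with blue symbols for healthy and red symbols for AML libraries, and horizontal bars at the mean of 3 libraries. AML 1 is the top symbol for each of these 10 genes, and the healthy 2 square lies above AML 2 and, except in Ccnb1, above AML 3.

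The spindle genes build and focus the microtubule array that separates the chromosomes. Tpx2, the activator and spindle anchor of Aurora A, had 3.02, 9.37 and 3.59 CPM in healthy 1 to 3 and 29.8, 6.03 and 8.18 CPM in AML 1 to 3. Its log2 fold change was 1.46 ± 0.68 (adjusted p = 0.569). Tacc3, which stabilises the fibres at kinetochores, had 9.18, 24.5 and 13.0 CPM in the healthy libraries, against 42.7, 15.6 and 16.0 CPM in the AML libraries. It was the most abundant spindle gene per length, at 7.59 CPM per kilobase over the 6 libraries, with a log2 fold change of 0.67 ± 0.48. Aurka, the Aurora A kinase, had the smallest log2 fold change of all 30 genes, 0.17 ± 0.45 (adjusted p = 0.916), and was the only gene whose lowest library was an AML one, AML 3. Log2 fold changes were 1.13 ± 0.96 for Hmmr, a spindle pole organiser, and 1.70 ± 0.92 for Nusap1, a microtubule bundler. They were 1.31 ± 0.81 for Ckap2l and 1.30 ± 0.91 for Kif11, the motor that pushes the poles apart. All 7 spindle genes were highest in AML 1, and none passed the adjusted threshold.

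Centromere genes differed among themselves in level and in span. Cenpa encodes the histone H3 variant that marks centromeres. It had 21.0, 26.1 and 17.5 CPM in healthy 1 to 3 and 38.1, 18.4 and 23.0 CPM in AML 1 to 3, with a log2 fold change of 0.30 ± 0.27 (adjusted p = 0.734). At 15.3 CPM per kilobase it was the most abundant of the 30 genes, and the span from its lowest to its highest library was only 2.176-fold. Cenpf, a kinetochore protein of late G2, was the least abundant per length, at 0.306 CPM per kilobase. It measured 0.324, 4.34 and 0.727 CPM in the healthy libraries, against 9.28, 0.670 and 5.05 CPM in the AML libraries, with a log2 fold change of 1.47 ± 1.09. Here AML 3 was above healthy 2 and AML 2 was below healthy 3, so the Cenpf values of the groups were interleaved. Cenpe, the motor that aligns chromosomes, was the single gene led by healthy 2, at 12.4 CPM against 11.1 CPM in AML 1, with a log2 fold change of 0.47 ± 0.90.

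The chromosomal passenger complex corrects faulty attachments of chromosomes and steers cytokinesis. Aurkb, its kinase Aurora B, had 1.44, 9.59 and 2.43 CPM in healthy 1 to 3 and 16.7, 5.26 and 4.20 CPM in AML 1 to 3, a log2 fold change of 0.96 ± 0.78 (adjusted p = 0.702). Birc5, which encodes survivin, had 1.40, 9.97 and 2.39 CPM in the healthy libraries, against 24.5, 3.81 and 4.96 CPM in the AML libraries, with a log2 fold change of 1.27 ± 0.91 (adjusted p = 0.677). In both genes AML 2 and AML 3 lay above healthy 1 and healthy 3 and below healthy 2. Cdca8, the borealin subunit, followed with 0.94 ± 0.74 on the log2 scale. Aurkb, Birc5 and Cdca8 were each highest in AML 1 and second highest in healthy 2.

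The spindle checkpoint delays anaphase until all chromosomes are attached. Mad2l1, which encodes the MAD2 inhibitor of the anaphase promoting complex, had 16.7, 21.5 and 14.8 CPM in healthy 1 to 3 and 28.6, 18.3 and 16.4 CPM in AML 1 to 3. It varied least of the 30 genes, 1.93-fold from lowest to highest library, and its log2 fold change was 0.26 ± 0.24 (adjusted p = 0.739). Per length it was second to Cenpa, at 11.1 CPM per kilobase. Bub1b, encoding BUBR1, had 4.29, 9.87 and 3.82 CPM in the healthy libraries, against 23.8, 5.88 and 5.61 CPM in the AML libraries, with a log2 fold change of 0.97 ± 0.63 (adjusted p = 0.647). Bub1, the kinase that recruits the other checkpoint proteins, had 2, 339 and 38 reads in healthy 1 to 3 and 711, 139 and 130 reads in AML 1 to 3. The 2 reads of healthy 1 are under the limit of 3 that 0 reads allow, and the log2 fold change of Bub1, 1.43 ± 1.33, had the widest error of the 30 genes. Mad2l1, Bub1b and Bub1 had the same 2 leading libraries, AML 1 and then healthy 2, with very different spans.

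The anaphase promoting complex ends mitosis by marking cyclin B and securin for destruction. Ube2c, its ubiquitin-conjugating enzyme, had 0.891, 6.49 and 0.914 CPM in healthy 1 to 3 and 17.4, 2.43 and 3.38 CPM in AML 1 to 3, a log2 fold change of 1.48 ± 1.00 (adjusted p = 0.661). AML 1 was 5.99-fold above the mean of AML 2 and AML 3, and healthy 2 was 7.19-fold above the mean of healthy 1 and healthy 3. Cdc20, the activator of the complex, varied less and had a log2 fold change of 0.57 ± 0.43.

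Cytokinesis genes act at the central spindle, where the cell is pinched apart. Prc1, the crosslinker of antiparallel microtubules, had 3.16, 12.6 and 3.41 CPM in healthy 1 to 3 and 32.4, 6.62 and 8.75 CPM in AML 1 to 3, a log2 fold change of 1.32 ± 0.74 (adjusted p = 0.620). Kif20a, a kinesin that carries the passenger complex to the midzone, had 2.15, 5.27 and 1.85 CPM in the healthy libraries, against 12.7, 3.67 and 4.94 CPM in the AML libraries. Its log2 fold change was 1.20 ± 0.57 (adjusted p = 0.570), and AML 3 came close to healthy 2. Kif23, the motor of centralspindlin, had a log2 fold change of 1.03 ± 1.09. Kif23 was also the gene in which AML 1 exceeded the other AML libraries most, and in which healthy 2 exceeded the other healthy libraries most apart from Bub1.

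Genes with a CHR match can be set beside those without. The excess of AML 1 over the mean of the other AML libraries had a median of 4.14-fold in the 19 genes with a match and 3.21-fold in the 6 without. The excess of healthy 2 over the mean of the other healthy libraries had medians of 4.12-fold and 4.16-fold. This is a description of 25 genes, with no test.

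A further 59 mitotic genes of the same machinery, such as kinetochore, condensin and kinesin genes outside the 30, showed the same leading library. The log2 fold change was positive in 53 of these 59, its median was 0.73, and 0 genes were past the adjusted threshold. AML 1 was the highest library in 94.9% of them, in 96.7% of the 30 genes and in 19.9% of all genes tested. Depdc1a had 1, 5 and 1 reads in healthy 1 to 3 and 50, 11 and 33 reads in AML 1 to 3 (adjusted p = 0.404). Its groups did not overlap, and 4 of the 59 genes were higher in AML without overlap, against 8.2% of all genes tested. With other tests Depdc1a was called once, by the likelihood ratio test of edgeR (adjusted p = 0.0236), and over the settings tried its adjusted p ranged from 0.0236 to 0.816.

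The 18 regulators that act on mitotic promoters had a median log2 fold change of 0.25, with 15 positive and 0 past the adjusted threshold. Rbl1, which encodes p107 of DREAM, was at 53.9 ± 2.6 CPM in the healthy libraries, against 67.9 ± 2.7 CPM in the AML libraries (SD, n = 3), with a log2 fold change of 0.33 ± 0.08 (adjusted p = 0.399). Rbl2, which encodes p130, was at 335 ± 3.7 and 386 ± 13.0 CPM, a log2 fold change of 0.20 ± 0.06 (adjusted p = 0.474). Both genes were higher in each AML library than in any healthy one, as were 4 of the 18 regulators and 8.2% of all genes tested. The libraries differed far less in Rbl1 and Rbl2 than in the mitotic genes. Log2 fold changes were 0.58 ± 0.92 for Mybl2, which encodes B-MYB, and 1.01 ± 0.70 for E2f1. For Rb1, Lin9 and Lin54 they lay between -0.03 and 0.06.

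Markers of other cell types were read in the same libraries, because AML 1 and healthy 2 stood apart. AML 1 had by far the highest sum of the 8 neutrophil markers, 163 CPM, against 9.26 and 14.1 CPM in AML 2 and AML 3. Healthy 2 had the lowest, 0.583 CPM, against 12.5 and 5.81 CPM in healthy 1 and healthy 3. In AML 1 these included the granule genes Ngp at 44.3 CPM and Ltf at 19.7 CPM, while Ly6g was at 0 in all 6 libraries. The neutrophil sum was at its highest in AML 1, the highest mitotic library, and at its lowest in healthy 2, the second highest. The 10 progenitor markers, mostly Kit, summed to 33.3 CPM in AML 1, 18.1 and 27.0 CPM in the other AML libraries, and 26.5, 7.26 and 16.2 CPM in healthy 1 to 3. Kit, Mpo, Elane, Prtn3, Ctsg and Myb were each highest in AML 1. Mpo had 1.28 CPM there (60 reads), against 0.306 and 0.105 CPM in AML 2 and AML 3. Prtn3 had 0.898 CPM in AML 1 (42 reads), against 0.077 and 0.105 CPM. Cd34, Gata2 and Meis1 were highest in AML 3, and Hoxa9 in healthy 3. The 10 macrophage markers summed to 24.4 to 84.2 CPM in healthy and 119 to 190 CPM in AML libraries, and this sum did not have the order of the mitotic genes. Csf1r, which is also on the monocyte list, made up 71.2 CPM of it in healthy 1 and 115 CPM in AML 1. Clec4f and Timd4 were highest in healthy 2, at 4.10 and 0.965 CPM. Csf1r and Marco were highest in AML 1, Vsig4 in AML 2, and Adgre1, C1qa, C1qb, C1qc and Cd5l in AML 3. T cell markers, mostly Cd3g, were lowest in AML 1, at 979 CPM. Of the 13 marker lists read, the erythroid one had the largest excess in healthy 2. Its 7 genes, mainly the globins Hba-a2 and Hbb-bs, summed to 43.9, 156 and 82.1 CPM in healthy 1 to 3, so healthy 2 was 2.47-fold above the mean of the other healthy libraries. In AML 1 to 3 the erythroid sum was 143, 146 and 200 CPM, with AML 1 the lowest of the group. Markers of natural killer cells were 1.52-fold higher in AML 1 than the mean of AML 2 and AML 3, and 0.888-fold in healthy 2 over the other healthy libraries. For the lists of B and plasma cells, ILC2 and ILC3, monocytes, dendritic cells, hepatocytes, and endothelium and stellate cells, AML 1 stood at 0.977 to 1.19 times and healthy 2 at 0.557 to 1.27 times the mean of the other libraries of its group. The dendritic sum was mostly Itgax, the hepatocyte sum mostly Trf, the ILC2 and ILC3 sum mostly Gata3 and the endothelial and stellate sum mostly Pecam1. For those lists the ratios mainly follow single genes present in all 6 libraries and say little of the other markers. The part of any of these cells in the mitotic levels was not tested.

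**Figure D5:**
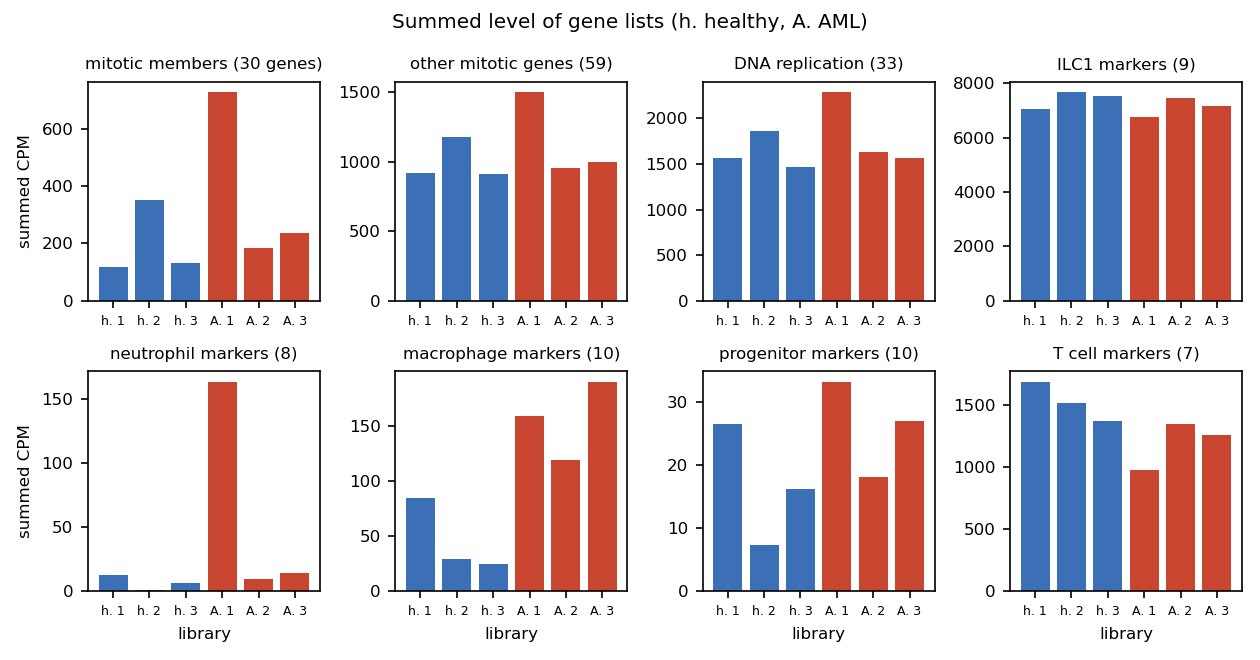
Bars give the summed CPM of each gene list in each library, blue for healthy and red for AML, with separate vertical axes that start at 0. The mitotic genes peak in AML 1 (728 CPM) and healthy 2 (350 CPM), whereas neutrophil markers peak in AML 1 (163 CPM) and are lowest in healthy 2.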

How the data were processed

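The authors deposited raw counts of reads, whole numbers for 24091 symbols in 6 libraries, made from poly(A) RNA without strand information per the labels' protocols. A second table deposited by the authors compares the groups, and per the file headers gives each of 9769 genes a log2 fold change and a p-value, raw and adjusted. Its 6 columns of values per library were not used. Tools named in the submitters' processing notes are STAR 2.6.0, bcl2fastq 2.18.0.12, edgeR 3.28.1 and HTSeq 0.6.0. The same notes list the builds hg19 and mm10, with no role for either. How reads that match several genes were counted is not given in the sources used here.

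Groups came from the titles and the disease label. The counts were fitted with the quasi-likelihood test of edgeR 4.0.16 (R 4.3.3), with TMM scaling, filterByExpr at a minimum count of 10 and the group as the only term. Tests were two-sided with Benjamini-Hochberg adjustment over 12469 genes. Levels are CPM on TMM-scaled totals, divided by the deposited gene length where given per kilobase. The fit was tested on simulated data in which each gene varied on its own. Those data held no shift shared by many genes of a library, so that test does not cover the spread seen in the mitotic genes. Alternatives used other scalings, filters (a minimum count of 50 among them), DESeq2 1.42.0, limma-voom (limma 3.58.1), the edgeR likelihood ratio test, a replicate block, Lyz2 as a covariate and omitted libraries. The omission of healthy 2 with AML 1 was chosen after seeing the data.

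The 30 genes, the other gene lists and the markers were chosen with earlier results of these data known. Levels in every library are given for 7 genes set by name (Mki67, Top2a, Cdk1, Ccnb1, Birc5, Plk1 and Foxm1) and for the member of each role group with the highest level per length and the one with the smallest p. Of each other list the 2 genes with the smallest p are named, except 1 that is not reported here, and of the regulators also Mybl2, E2f1, Rb1, Lin9 and Lin54. Promoters printed are those of such genes with a CHR match, at most 6, in a set order. Sgo1, Sgo2a, Trac, Trbc1, Trbc2, Ighm, Igkc, Hba-a1 and Hbb-bt did not match a symbol of the count table. Lists of B and plasma cell, ILC2 and ILC3, monocyte, dendritic, erythroid, hepatocyte, and endothelial and stellate markers were also read.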

Additional observations from a re-analysis of the deposited data

How the results depend on the processing

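In all 18 alternative settings 0 of the mitotic genes tested passed the adjusted threshold. All 30 were tested, except 28 with DESeq2, which gave no p-value for Bub1 and Kif23, and 29 at a minimum count of 50, where Ccnb1 left the tested genes. The median log2 fold change of the 30 genes was 2.33 with Lyz2 as a covariate, 0.065 to 2.21 with single libraries left out, and -0.24 with both healthy 1 and AML 1 left out. In the other settings it lay between 1.03 and 1.22. The titles' replicate numbers do not pair the libraries by label, and same-numbered libraries had correlations of their deviations of 0.13, -0.11 and 0.23. The fit with the replicate block gave a median of 1.21 and 0 calls among the 30 and among all genes. The number of all genes called was 0 in the main test, 1 with upper quartile factors, 143 with DESeq2, 100 with the likelihood ratio test and 2 with no filter. It ran from 0 to 147 with single libraries left out, and was 444 without healthy 1 and AML 1 and 82 without healthy 2 and AML 1. Mitotic genes whose groups did not overlap in either direction numbered 0 to 22 with single libraries left out, where 22.9% to 34.8% of all genes did not overlap. They numbered 2 without healthy 1 and AML 1 (47.3% of all genes) and 23 without healthy 2 and AML 1 (44% of all genes). The causes were not tested.

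Signs turned mainly where AML 1 was left out. With single libraries left out, log2 fold changes ran from -0.065 to 1.22 for Cdk1, -0.44 to 0.92 for Foxm1, -0.13 to 2.181 for Cdca3, -0.022 to 1.56 for Mki67, -0.55 to 0.45 for Aurka, -0.100 to 2.61 for Kif11, -0.056 to 0.50 for Cenpa, -0.039 to 2.40 for Cenpe, -0.066 to 2.54 for Birc5, -0.063 to 1.52 for Bub1b, -0.027 to 0.41 for Mad2l1, -0.029 to 0.88 for Cdc20, -0.57 to 2.97 for Kif23, -0.82 to 1.23 for Mybl2, -0.018 to 0.11 for Rb1, -0.078 to 0.14 for Lin9 and -0.23 to 0.072 for Lin54. Without healthy 1 and AML 1 they were -0.31 for Cdk1, -0.20 for Ccnb2, -0.72 for Foxm1, -0.48 for Cdca3, -0.21 for Plk1, -0.36 for Mki67, -0.60 for Aurka, -0.25 for Tacc3, -0.42 for Hmmr, -0.51 for Kif11, -0.075 for Cenpa, -0.53 for Cenpe, -0.35 for Aurkb, -0.50 for Birc5, -0.16 for Cdca8, -0.50 for Bub1, -0.25 for Bub1b, -0.068 for Mad2l1, -0.23 for Cdc20, -0.35 for Ube2c, -0.058 for Prc1, -1.02 for Kif23, -1.31 for Mybl2, -0.20 for E2f1, -0.061 for Rb1 and -0.21 for Lin9. Without healthy 2 and AML 1 they were -0.31 for Aurka, -0.17 for Mybl2 and -0.0086 for Lin9. Aurka was also at -0.014 with limma-voom and -0.00098 with the replicate block.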

Other observations

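Genes of DNA replication, which act in S phase before the mitotic genes, leaned the same way with smaller differences. Of 33 such genes 28 had a positive log2 fold change, with a median of 0.28, 0 passed the adjusted threshold of edgeR's quasi-likelihood test, and AML 1 was the highest library in 90.9%. The smallest p values belonged to Hells, a chromatin remodeller, and Gins1, a subunit of the replicative helicase. Hells was at 8.93 ± 3.32 CPM in the healthy group, against 17.9 ± 2.6 CPM in the AML group (SD, n = 3), with a log2 fold change of 1.00 ± 0.27 (adjusted p = 0.404, and 0.0306 to 0.816 over the settings tried, the lowest with DESeq2). Gins1 was at 2.29 ± 0.27 and 4.11 ± 0.65 CPM, a log2 fold change of 0.84 ± 0.26 (adjusted p = 0.469). These 2 genes were named for their small p, and in both every AML library was above every healthy one. That was the case for 3 of the 33 replication genes, 0 of the 30 mitotic genes and 8.2% of all genes tested.

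The 17 tested inhibitors of cyclin-dependent kinases and genes of G1 had a median log2 fold change of -0.01, with 8 positive and 9 negative and 0 past the adjusted threshold. Cdkn1c, which encodes the inhibitor p57, was at 12.4 ± 2.1 CPM in the healthy group, against 6.36 ± 1.62 CPM in the AML group, with a log2 fold change of -0.97 ± 0.24 (adjusted p = 0.399, and 0.0144 to 0.816 over the settings tried). Ccnd1, which encodes cyclin D1, was at 0.842 ± 0.028 and 2.00 ± 0.54 CPM, a log2 fold change of 1.25 ± 0.37 (adjusted p = 0.457). These 2 genes were named for their small p, and their groups did not overlap. Of the 17 genes, 1 was higher and 2 were lower in AML without overlap, against 15.5% of all genes tested in either direction.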
